A study of Mus musculus with 19 samples.

Results

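The genes described here encode proteins of the synaptic vesicle and of the machinery that releases its contents, namely Syn1, Syp, Snap25, Stx1a, Vamp2, Syt1, Sv2a, Slc17a7, Cplx1 and Cplx2. They were chosen by name, with earlier results of these data known, and make up 10 of the 48709 genes counted in each library. All 10 passed the filter on low counts that left 19286 genes for testing. RNA was sequenced from the CA1 region of the dorsal hippocampus of 19 male C57B/6J mice, to ask how gene expression in the aged hippocampus responds when 3 microRNAs are inhibited.

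The young group held 6 mice of 3 months and the old control group 6 mice of 16.5 months, and both received control oligonucleotides. The old anti-miR-mix group held 7 mice of 16.5 months that received a mixture of inhibitors of miR-181a-5p, of miR-146a-5p and of miR-148a-3p. In every group the oligonucleotides were packed in lipid nanoparticles and injected on both sides into the dorsal hippocampus, so all 3 groups share the injection and the particles, and no group of uninjected mice is part of the comparisons. No young mice with the inhibitors are part of the samples, so an effect of the inhibitors that depends on age cannot be told apart from one that does not. The libraries held 26653511 to 38908947 reads, and old control replicates 5 and 6 were more alike than any other pair of the same group, with a chi-square of 2.18 per degree of freedom over 12780 genes against at least 6.10 in the other pairs. Calls over all genes, calls of vesicle genes with age, Stx1a with age and Syt1 with the inhibitors are also given with both counted as 1 library. The adjusted p of other single genes and the calls of marker lists are not given in that way.

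At a synapse, vesicles filled with transmitter are held in clusters, dock at the active zone and fuse with the presynaptic membrane when calcium enters. Fusion is driven by the SNARE complex, a bundle formed by a vesicle protein, synaptobrevin, and the plasma membrane proteins syntaxin and SNAP-25. Synaptotagmin is the calcium sensor, and complexins clamp and assist the assembled complex. In CA1, pyramidal cells and other neurons make these messenger RNAs in their cell bodies. The proteins act at terminals, and those of pyramidal cells often lie in other regions. Markers of inhibitory neurons summed to 1489 to 1753 CPM over 10 genes in this tissue. Most messenger RNA of the CA3 cells whose terminals end in CA1 lies outside it, in their own cell bodies, although markers of CA3 cells (105 to 130 CPM in sum over 6 genes) and of dentate granule cells (112 to 219 CPM over 6 genes) were also counted in this tissue.

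MicroRNAs bind messenger RNAs by pairing of their seed, bases 2 to 8, mostly in the 3′ untranslated region. The sequences below are shown because they define what was blocked and which letters a transcript must hold to pair with the seed. The mature microRNAs, from RefSeq (GRCm38.p6), are printed with the seed in capitals, and their 3 seeds differ.
miR-146a-5p: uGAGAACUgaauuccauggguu
miR-148a-3p: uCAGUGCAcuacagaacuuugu
miR-181a-5p: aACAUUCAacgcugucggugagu
The inhibitors listed by the study are printed with the letters complementary to the seed in capitals. The inhibitor of miR-146a-5p held all 7 of them and the others 6 each, and the control oligonucleotide held none.
inhibitor of miR-146a-5p: acccatggaattcAGTTCTC
inhibitor of miR-148a-3p: caaagttctgtagTGCACT
inhibitor of miR-181a-5p: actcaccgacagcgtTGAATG
control for the inhibitors: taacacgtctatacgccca

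The longest annotated 3′ untranslated region (GENCODE M21, GRCm38) of each gene was searched on the transcript strand for the 7 letters that pair with each seed. Shorter regions of other transcripts were not searched. These are AGTTCTC for miR-146a-5p, TGCACTG for miR-148a-3p and TGAATGT for miR-181a-5p. Of the 10 genes, 3 held a match, Syn1, Syt1 and Sv2a, whereas 35% of 15351 tested genes with an annotated region held at least 1. Stx1a, Snap25, Vamp2, Syp, Slc17a7, Cplx1 and Cplx2 held none in the region searched. A match is a description of the letters and not evidence of binding. The 4 matches are printed on the transcript strand with the paired letters in capitals, so that their genes can be read beside the values under treatment below.
Syn1, miR-146a-5p, chrX:20861294-20861316, minus strand: ctaaatccAGTTCTCacatttgg
Syt1, miR-146a-5p, chr10:108498935-108498957, minus strand: gcacaaacAGTTCTCattcttaa
Syt1, miR-148a-3p, chr10:108498965-108498987, minus strand: cctcgtacTGCACTGcccaatgt
Sv2a, miR-181a-5p, chr3:96195325-96195347, plus strand: ccagtgtgTGAATGTgcgaccct

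Genes were located in GRCm38 by the GENCODE M21 annotation. The SNARE genes were Snap25 (ENSMUSG00000027273) at chr2:136713453-136782428 on the plus strand, Stx1a (ENSMUSG00000007207) at chr5:135023482-135051100 on the plus strand and Vamp2 (ENSMUSG00000020894) at chr11:69088490-69092384 on the plus strand. The calcium sensor and the complexins were Syt1 (ENSMUSG00000035864) at chr10:108497650-109010982 on the minus strand, Cplx1 (ENSMUSG00000033615) at chr5:108518554-108550024 on the minus strand and Cplx2 (ENSMUSG00000025867) at chr13:54371349-54383917 on the plus strand. The vesicle proteins were Syn1 (ENSMUSG00000037217) at chrX:20860511-20921004 on the minus strand, Syp (ENSMUSG00000031144) at chrX:7638471-7653256 on the plus strand, Sv2a (ENSMUSG00000038486) at chr3:96181151-96195521 on the plus strand and Slc17a7 (ENSMUSG00000070570) at chr7:45163949-45176142 on the plus strand. No other annotated gene overlapped Stx1a, Vamp2, Syt1, Sv2a, Cplx1 or Cplx2, and 7 of the 10 genes shared no 50-base word with another gene, while Cplx2 shared 2.12% and Snap25 0.221% of theirs.

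Together the 10 genes took 0.903% to 0.980% of all reads of a library. Their counts ran from 2296 reads of Stx1a to 87706 reads of Snap25 in a single library. By mean log2 CPM, the log2 of reads scaled to a common library size, 9 of the 10 stood among the 237 highest of the genes tested, and Stx1a stood at rank 2447. Per length of annotated exon, the order of mean levels over the 19 libraries was Snap25 with 342 ± 13.3 RPKM (SD, n = 19), Vamp2 with 271 ± 9.72 RPKM, Cplx1 with 252 ± 15.8 RPKM, Syt1 with 209 ± 9.17 RPKM, Cplx2 with 198 ± 10.1 RPKM, Slc17a7 with 176 ± 15.9 RPKM, Syn1 with 147 ± 6.40 RPKM, Syp with 140 ± 8.25 RPKM, Sv2a with 117 ± 6.28 RPKM and Stx1a with 36.6 ± 4.87 RPKM. The neighbours Vamp2 and Cplx1, Syt1 and Cplx2, Cplx2 and Slc17a7, and Syn1 and Syp had ranges of the mean ± 1 SD that overlapped. Only for Syn1 and Syp was the gap between the means smaller than the larger SD of the pair, that of Syp. All annotated exons of a gene were counted in its length, so levels between genes depend on which of its transcripts were made.

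Biological variation was small for most of these genes. The range over all 19 libraries was 0.19 on the log2 scale for Syt1, the narrowest, and 0.69 for Stx1a, the widest. The median biological coefficient of variation was 5.96% for the 10 genes and 8.66% for all genes tested. It was 5.89% for the genes at least as highly counted as Stx1a, near the value of the 10 genes. Levels were not matched in this, since the other 9 genes stood among the 237 highest. Old anti-miR-mix replicate 1 was the highest of its group for 6 of the 10 genes, and old control replicate 4 was the lowest of its group for 7. No library stood apart from its group by Dixon's test in any of the 30 combinations of gene and group.

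**Figure D1:**
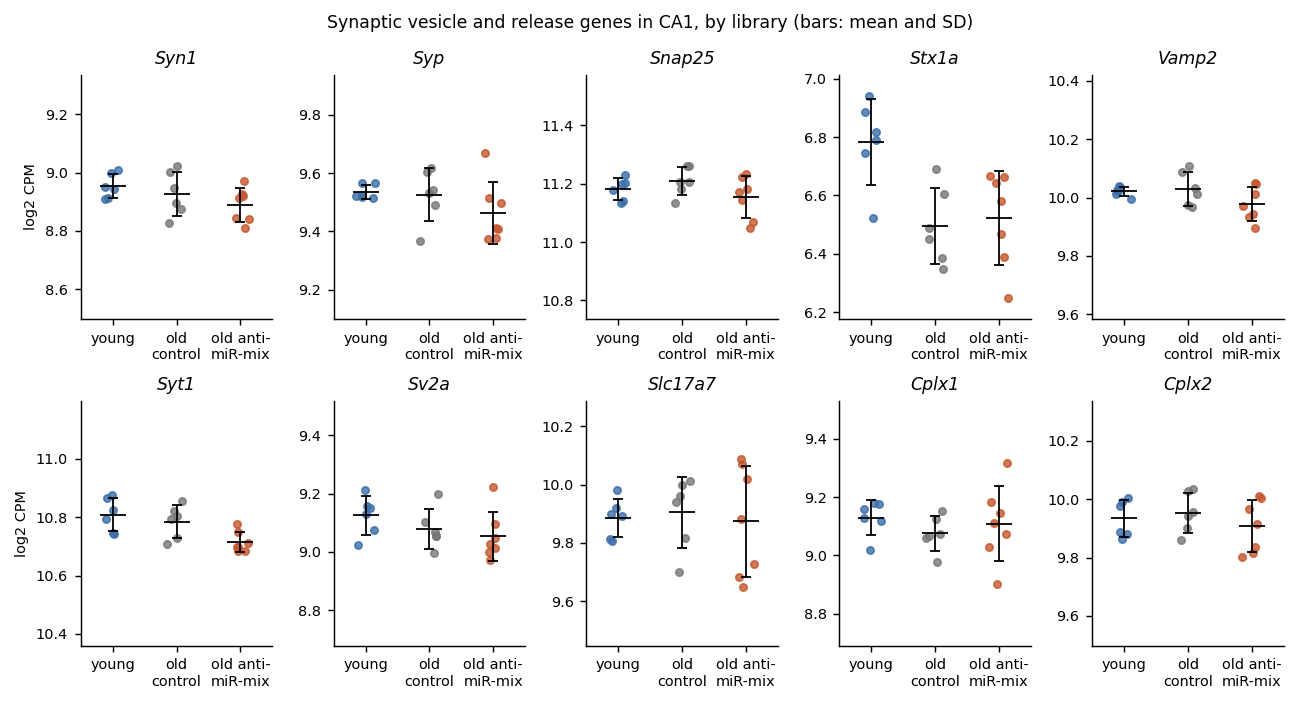
Log2 CPM of each gene in every library, by group, with 1 point per mouse and black bars for the mean and SD; each panel spans the same width on the log2 scale. The groups overlap for all 10 genes, and the young libraries of Stx1a lie mostly above both old groups, apart from young replicate 2 at 6.52.

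With age, the first question the design asks, 1 of the 10 genes was called and 9 were bounded within 1.2-fold. The call held in 8 of 13 alternatives and in 2 of 12 fits without 1 library. Stx1a, which encodes the plasma membrane SNARE syntaxin-1A, fell in old control mice by 0.29 on the log2 scale (SE 0.08, edgeR quasi-likelihood test, adjusted p = 0.0455 over all genes tested). The other genes had 95% intervals of their log2 fold change that lay within 0.263 of 0, that is within 1.2-fold, and 6 of them within 1.1-fold, a bound that 17% of all genes tested and 45.1% of those at least as highly counted as Stx1a met. Among all genes tested 2.67% were called with age, 1.34% being called as lower, and 18.1% had an unadjusted p under 0.05, as had Stx1a alone of the 10. The 1.2-fold bound was met by 47.3% of all genes tested and by 86% of the 2447 genes at least as highly counted as Stx1a. The share of the 10 genes was near the latter. Levels were not matched in this, since the other 9 genes stood among the 237 highest. The median log2 fold change was -0.015 for the 10 genes and 0.0064 for all genes tested, with 4 fitted values above and 6 below 0. No gene of the 10 had groups that did not overlap, which 2.54% of all genes tested had.

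With the inhibitors, none of the 10 genes was called in old mice and all 10 were bounded within 1.2-fold. Of them 5 were bounded within 1.1-fold, as were 22.1% of all genes tested and 48.6% of those at least as highly counted as Stx1a. The count of 0 was given by edgeR, DESeq2 and limma-voom, and 1 gene, Syt1, had an unadjusted p under 0.05 by edgeR, as had 10.5% of all genes tested. Among all genes tested 0.669% were called, each of them higher and 0% lower. These were 129 genes, a number that was 9 with the number recovered from the deposited log2 values (given with Stx1a) as a factor, 33 with old control replicates 5 and 6 as 1 library, and 23 to 247 without 1 library. The bound was met by 52.3% of all genes tested and by 90.1% of those at least as highly counted as Stx1a. The largest loss that any of the 10 intervals allowed was 11.3% (Slc17a7, lower bound -11.3%), and the largest gain was 13.5%, for Stx1a. The median log2 fold change was -0.042 for the 10 genes, -0.052 for 12 pan-neuronal markers and 0.00035 for all genes tested. Groups that did not overlap occurred in 0 of the 10 genes and in 0.498% of all genes tested.

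In the comparison of old anti-miR-mix with young mice, which differ in both age and treatment, Stx1a was again the 1 gene called, 9 genes were bounded within 1.2-fold and 4 within 1.1-fold, as were 18.3% of all genes tested and 42.7% of those at least as highly counted as Stx1a. An unadjusted p under 0.05 was found for Stx1a and Syt1, that is for 2 of the 10, and for 19.6% of all genes tested. Groups that did not overlap occurred in 0 of the 10 and in 2.42% of all genes tested. Among all genes tested 6.2% were called, 1.63% as lower, and 49.7% met the 1.2-fold bound, or 90.6% of those at least as highly counted as Stx1a. All 10 fitted log2 fold changes were below 0 (median -0.053, against 0.0028 for all genes tested). The median of 12 pan-neuronal markers was near that of the 10 genes, at -0.055. The fitted value of Slc17a7 was close to 0. It was above 0 with total counts as the scaling, in 3 other alternatives and without 1 library in 8 of 13 cases. The comparison shares its young mice with the comparison by age and its treated mice with the comparison by treatment, so the 3 sets of values are not independent of each other.

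**Figure D2:**
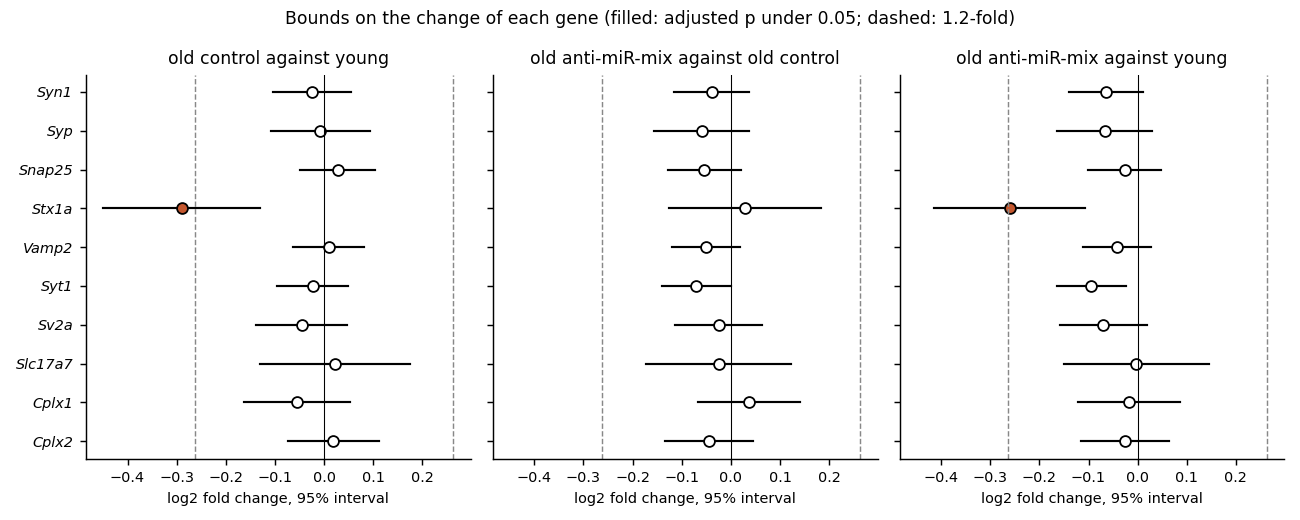
Log2 fold change of each gene with its 95% interval in the 3 comparisons, filled where the adjusted p was under 0.05 and with dashed lines at 1.2-fold in either direction. Stx1a leaves the dashed lines in both comparisons with young mice, and every other interval lies inside them.

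Stx1a binds synaptobrevin and SNAP-25 from the plasma membrane side, and it was the only one of the 10 called with age. In young mice its log2 CPM was 6.94, 6.52, 6.74, 6.89, 6.79 and 6.82 in replicates 1 to 6, from 2433 to 4553 reads. In old control mice it was 6.69, 6.35, 6.45, 6.39, 6.49 and 6.61. In old anti-miR-mix mice it was 6.47, 6.58, 6.25, 6.66, 6.39, 6.67 and 6.64 in replicates 1 to 7. Young replicate 2 lay within the range of both old groups, and the other 5 young libraries lay above every old library. Young mice had a mean of 41.5 ± 4.05 RPKM (SD, n = 6), old control mice one of 33.9 ± 3.15 RPKM (n = 6) and old anti-miR-mix mice one of 34.7 ± 3.74 RPKM (n = 7). The change with age had a 95% interval of -0.45 to -0.13 on the log2 scale, or -26.8% to -8.60%. For old anti-miR-mix against young mice its log2 fold change was -0.26 (SE 0.07, interval -0.41 to -0.11, adjusted p = 0.0374 by edgeR). Between the old groups it was 0.029 (SE 0.07, interval -0.13 to 0.18, adjusted p = 0.934 by edgeR), so that no difference was detected between the old groups, and the interval ran from -8.31% to 13.5%.

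Within libraries, the log2 CPM of Stx1a minus the mean of the other 9 genes was -3.06 ± 0.14 (SD, n = 6) for young mice, -3.34 ± 0.12 (n = 6) for old control mice and -3.27 ± 0.17 (n = 7) for old anti-miR-mix mice, which shows the same gap on a scale that does not use the library total. As tissue was measured in bulk, fewer cells that make Stx1a and less of its RNA per cell cannot be told apart. The call rested on the whole set of libraries. Without any 1 library the log2 fold change with age stayed between -0.33 and -0.25, but the adjusted p passed the threshold only without young replicate 2 (0.0163) or old control replicate 1 (0.0333). It was 0.0985, 0.0661, 0.114, 0.0706 and 0.0752 without young replicates 1, 3, 4, 5 and 6, and 0.0981, 0.0961, 0.0875, 0.0872 and 0.0589 without old control replicates 2 to 6. With old control replicates 5 and 6 counted as 1 library it was 0.0687.

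The comparison of Stx1a between old anti-miR-mix and young mice behaved likewise. The adjusted p by edgeR was 0.0974, 0.0518, 0.0879, 0.0567 and 0.0714 without young replicates 1, 3, 4, 5 and 6. It was 0.0604, 0.0744 and 0.0743 without old anti-miR-mix replicates 1, 3 and 5, and under the threshold, down to 0.0114, without any 1 of the other 5 libraries. The deposited log2 values differ from those computed from the counts by a slope per gene times a number from 1 to 4 per library. This number was recovered from the values and is named in no label, and processing group is only a working name for it. Within processing groups 1, 2 and 4 the difference of Stx1a with age was -0.42, -0.10 and -0.26 on the log2 scale, lower in old control mice in each. These values rest on few libraries, 2 old control against 1 young in groups 1 and 2, and 2 against 2 in group 4. Group 3 held no old control library. For old anti-miR-mix against young mice the difference was -0.47, 0.092, -0.38 and -0.14 in groups 1 to 4. There 1, 2, 3 and 1 treated libraries stood against 1, 1, 2 and 2 young ones. With processing group as a factor the adjusted p by edgeR was 0.0618 with age and 0.0733 between old anti-miR-mix and young mice.

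**Figure D3:**
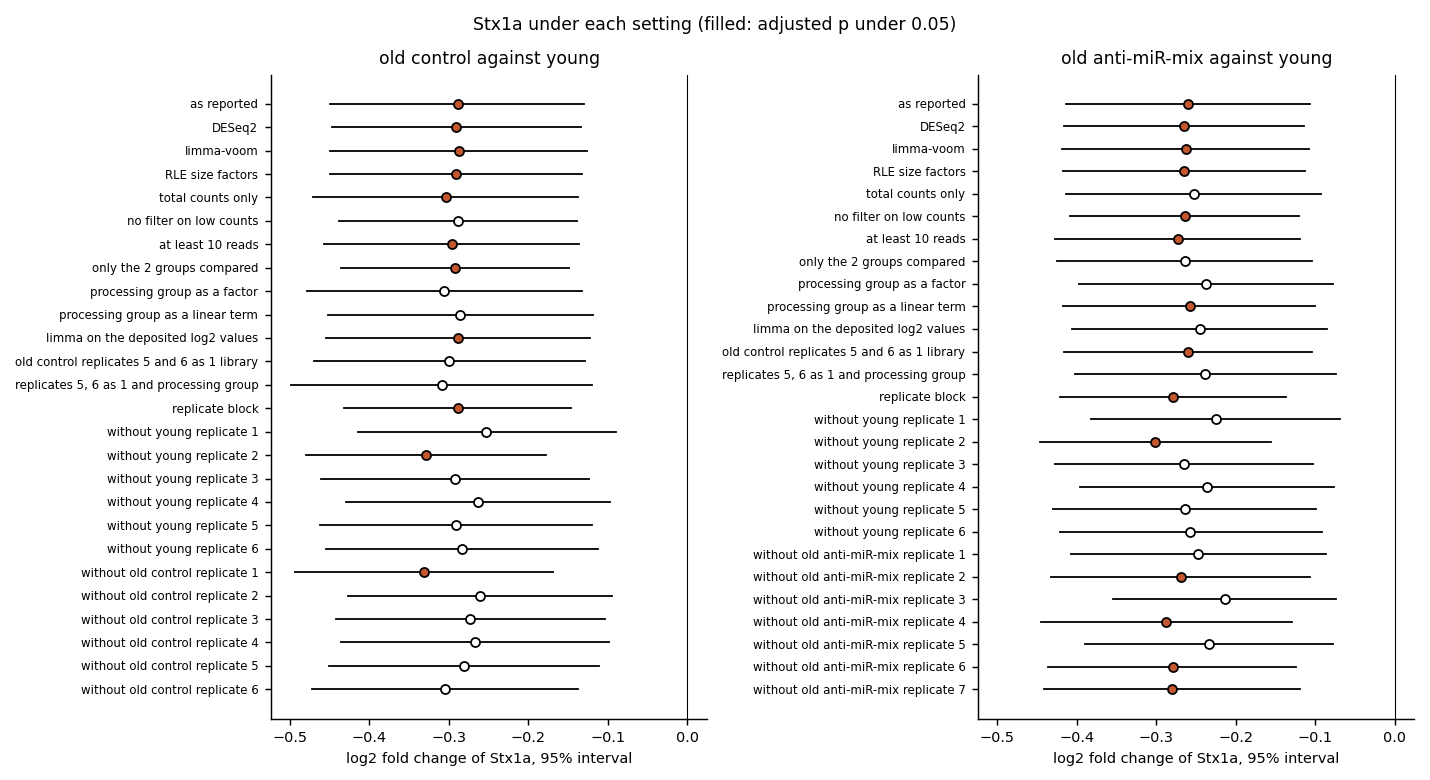
Log2 fold change of Stx1a with its 95% interval under each alternative and without each library, for old control and for old anti-miR-mix against young mice, filled where the adjusted p was under 0.05. Every interval lies below 0, with log2 fold changes from -0.33 to -0.25 with age and from -0.30 to -0.21 in the other comparison, while the adjusted p crosses the threshold.

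The partner SNAREs of syntaxin did not show this change. Snap25, the most abundant transcript of the 10, ranged from 11.13 to 11.23 log2 CPM in young (median 11.19), from 11.14 to 11.26 in old control (median 11.21) and from 11.05 to 11.23 in old anti-miR-mix mice (median 11.17). Vamp2, which encodes synaptobrevin-2, ranged from 9.996 to 10.04 in young (median 10.02), from 9.97 to 10.11 in old control (median 10.02) and from 9.90 to 10.05 in old anti-miR-mix mice (median 9.97). The young libraries of Vamp2 lay close together, inside the range of both old groups. The change of Snap25 with age was bounded between -3.39% and 7.51%, and that of Vamp2 between -4.25% and 5.76%. With the inhibitors the bounds were -8.50% and 1.43% for Snap25 and -7.98% and 1.27% for Vamp2.

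Syt1, which encodes the calcium sensor of fast release, was the gene with the smallest range over libraries and 2 of the 4 seed matches printed above. Its log2 CPM was 10.83, 10.74, 10.87, 10.74, 10.79 and 10.88 in young replicates 1 to 6. It was 10.73, 10.86, 10.82, 10.71, 10.80 and 10.80 in old control replicates 1 to 6. It was 10.68, 10.69, 10.70, 10.71, 10.75, 10.78 and 10.70 in old anti-miR-mix replicates 1 to 7. The treated libraries thus lay at the low end, with 4 of 7 below every young and old control library, and the other 3 within the range of the old control libraries. Against old control the log2 fold change was -0.071 (SE 0.034, interval -0.14 to -0.00059), with an adjusted p of 0.470 by edgeR. In some alternatives, such as DESeq2 (-0.14 to -0.013), this interval stayed below 0, and in others it held 0. It reached 0.0086 with old control replicates 5 and 6 as 1 library, 0.0099 with processing group as a factor and 0.020 with total counts. Without 1 library the log2 fold change was -0.086 to -0.056, and in most of these fits the interval held 0. It was -0.128 to 0.016 without old control replicate 2. Against young the log2 fold change was -0.094 (SE 0.034, interval -0.16 to -0.024), with an adjusted p of 0.109 by edgeR. It was 0.0234 by DESeq2, the one alternative of 13 in which Syt1 passed. With age the value was -0.023 (interval -0.096 to 0.049). Within processing groups 1, 2 and 4 the difference between old anti-miR-mix and old control mice was -0.11, -0.072 and -0.021 on the log2 scale. There 1, 2 and 1 treated libraries stood against 2 old control libraries each. The 3 treated libraries of group 3 had no old control library in their group.

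The complexins, small proteins that bind the assembled SNARE complex, were bounded in every comparison. Cplx1 ranged from 9.02 to 9.18 log2 CPM in young (median 9.14), from 8.98 to 9.15 in old control (median 9.07) and from 8.90 to 9.32 in old anti-miR-mix mice (median 9.11). Cplx2 ranged from 9.86 to 10.004 in young (median 9.93), from 9.86 to 10.03 in old control (median 9.95) and from 9.80 to 10.01 in old anti-miR-mix mice (median 9.92). For both genes the treated libraries spread the most, and for Cplx1 they reached beyond both other groups at either end. The change with age lay between -10.7% and 3.78% for Cplx1 and between -5.02% and 8.11% for Cplx2. With the inhibitors it lay between -4.56% and 10.3% for Cplx1 and between -8.90% and 3.21% for Cplx2.

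Syn1 encodes synapsin I, which tethers vesicles to each other in the reserve cluster, and its transcript holds a match to the seed of miR-146a-5p. Its log2 CPM ranged from 8.91 to 9.01 in young (median 8.95), from 8.83 to 9.02 in old control (median 8.92) and from 8.81 to 8.97 in old anti-miR-mix mice (median 8.91). The groups overlapped, and the change was bounded between -6.99% and 3.80% with age and between -7.68% and 2.61% with the inhibitors. Against young, the old anti-miR-mix mice differed by -0.064 on the log2 scale (SE 0.037), at an adjusted p of 0.351 by edgeR. Exons of Syn1 overlap those of Araf by 9 bases.

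Of the vesicle membrane proteins, Syp encodes synaptophysin, a partner of synaptobrevin, and Sv2a a transporter-like glycoprotein of all vesicles. Syp ranged from 9.51 to 9.57 log2 CPM in young (median 9.52), from 9.37 to 9.62 in old control (median 9.54) and from 9.37 to 9.67 in old anti-miR-mix mice (median 9.41). Sv2a ranged from 9.02 to 9.21 in young (median 9.14), from 8.996 to 9.20 in old control (median 9.06) and from 8.97 to 9.22 in old anti-miR-mix mice (median 9.03). The young libraries of Syp lay close together, inside the wider ranges of both old groups. With age the change lay between -7.24% and 6.66% for Syp and between -9.10% and 3.28% for Sv2a. With the inhibitors it lay between -10.3% and 2.62% for Syp and between -7.55% and 4.54% for Sv2a, whose transcript holds a match to the seed of miR-181a-5p. The value of Syp is less certain than the others, since 875 of its exonic bases are also exonic in the antisense gene Gm14703 and 16.1% of its 50-base words occur there, while counting by strand was not stated.

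Slc17a7 encodes VGLUT1, the transporter that fills vesicles with glutamate in hippocampal pyramidal cells. Its log2 CPM ranged from 9.81 to 9.98 in young (median 9.90), from 9.70 to 10.01 in old control (median 9.95) and from 9.65 to 10.09 in old anti-miR-mix mice (median 9.88). The young libraries lay inside the range of each old group, and the SD was 0.07 in young, 0.12 in old control and 0.19 in old anti-miR-mix mice. The bounds were accordingly the widest apart from Stx1a, -8.69% to 12.9% with age, -11.3% to 8.88% with the inhibitors and -9.91% to 10.6% for old anti-miR-mix against young mice. Whether the spread itself differs between groups was not tested.

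The values of the 3 genes with a seed match lay in the range of the others or just below it. Against old control mice the log2 fold change was -0.039 for Syn1, -0.071 for Syt1 and -0.025 for Sv2a, and it ran from -0.060 for Syp to 0.037 for Cplx1 among the 7 genes without a match. None of these values passed the test, and the match and no-match genes were not tested against each other.

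Against young mice, the old anti-miR-mix mice allowed changes of the remaining genes that were narrow on the side of a gain. The bounds were -9.29% and 0.824% for Syn1, -7.40% and 1.91% for Vamp2, and -10.4% and 1.29% for Sv2a. They were -6.74% and 3.38% for Snap25, -10.8% and 2.08% for Syp, -8.11% and 6.19% for Cplx1, and -7.69% and 4.58% for Cplx2. Each of these intervals held 0, whereas those of Stx1a, from -24.9% to -7.15%, and of Syt1, from -10.8% to -1.65%, did not.

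Of 141 other genes of vesicle release, listed by role, 138 were tested, and few passed the test. With age 1 was higher and 4 were lower, that is 5 of 138 against 2.67% of all genes tested, and the median log2 fold change was -0.013. With the inhibitors 0 of 138 passed by edgeR and also by DESeq2 and limma-voom, with a median of -0.037, against 0.669% of all genes tested. An unadjusted p under 0.05 was found for 16 of the 138 by edgeR and for 10.5% of all genes tested, so both counts were near the background. In old anti-miR-mix against young mice 1 was higher and 5 were lower, against 6.2% of all genes tested, with a median of -0.043. The count with age was 10 by DESeq2, and 2 or 3 without any 1 of young replicates 3, 4 and 5 and old control replicates 2, 3, 5 and 6, while it was 8 without young replicate 2. For old anti-miR-mix against young mice it was 10 by DESeq2 and without young replicate 2, and 3 without young replicate 4.

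By role, none of 27 further SNAREs and regulators passed with age, and 1, Stx3, a syntaxin of the plasma membrane, was higher in old anti-miR-mix than in young mice with a log2 fold change of 0.12 (interval 0.048 to 0.19). Of 16 calcium sensors 1 was lower in both comparisons with young mice, Syt13, a synaptotagmin that lacks the usual calcium-binding residues. Its log2 fold change was -0.13 in each, with an adjusted p by edgeR of 0.0461 with age and 0.0216 in the other. Its log2 CPM ranged from 7.35 to 7.53 in young, from 7.24 to 7.39 in old control and from 7.20 to 7.35 in old anti-miR-mix mice. Of 28 active zone genes 1 was lower with age, Rims4, a short RIM protein, by -0.32 on the log2 scale (SE 0.06), at an adjusted p of 0.00603 by edgeR. Rims4 ranged from 6.46 to 6.84 log2 CPM in young and from 6.26 to 6.44 in old control mice, without overlap, and from 6.24 to 6.55 in old anti-miR-mix mice.

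Rims4 was also lower in old anti-miR-mix than in young mice, by -0.28 on the log2 scale, as was Cask, a scaffold kinase of the presynaptic membrane, by -0.11. Among 26 genes of vesicle endocytosis, the endophilins Sh3gl1 and Sh3gl3 were lower with age, with log2 fold changes of -0.28 and -0.23. Sh3gl3 was lower in old anti-miR-mix against young mice as well (-0.24), together with Snap91, a clathrin adaptor that stood beyond the 4 genes to be named and was added after its values were seen (-0.11). The 1 higher gene with age was Sncg, γ-synuclein, among 20 genes of the vesicle membrane, with a log2 fold change of 0.67 (SE 0.14). Its level was low, 0.44 to 0.92 log2 CPM in young and 1.13 to 1.81 in old control mice. None of the 5 tested transmitter transporters and none of the 16 genes of the vesicular proton pump passed in any comparison.

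**Figure D4:**
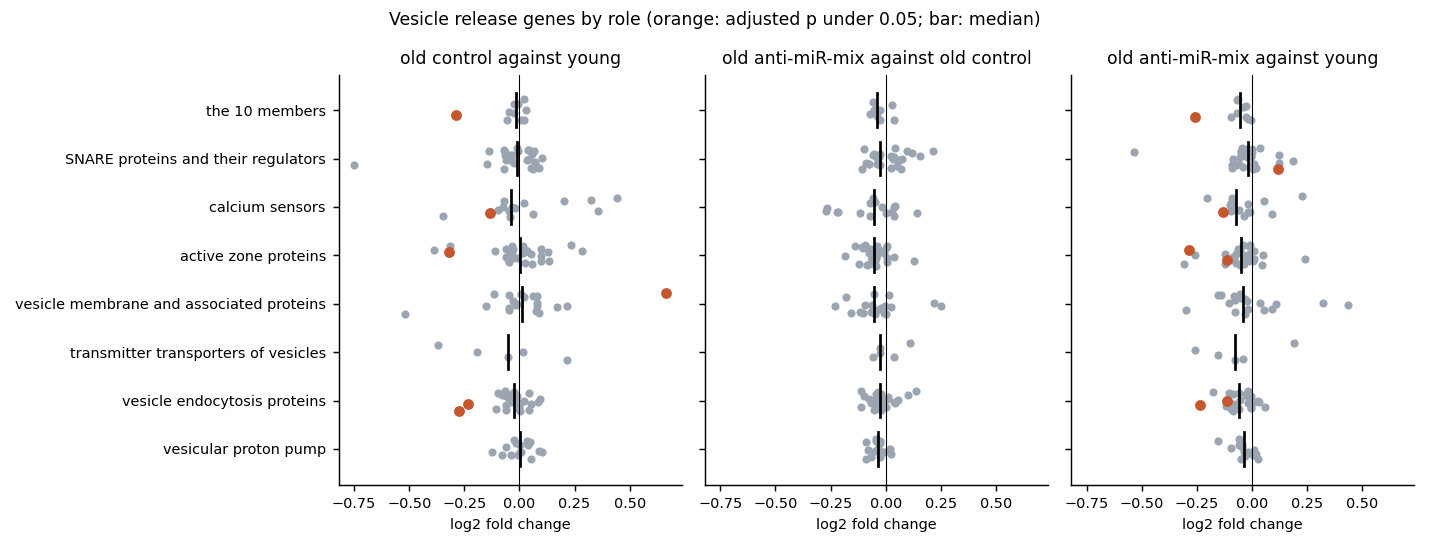
Log2 fold change of the 10 genes and of 138 other vesicle release genes by role in the 3 comparisons, with 1 point per gene, orange where the adjusted p was under 0.05 and a black bar at the median of each list. Most points lie near 0, none is orange for the inhibitors against old control, and Sncg is the highest orange point with age at 0.67.

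Marker genes of CA1 pyramidal cells were present in all groups, and none of the 8 had a median under 1 CPM in any group. Their summed level was 1043 to 1270 CPM in young (median 1077), 1092 to 1320 CPM in old control (median 1283) and 894 to 1262 CPM in old anti-miR-mix mice (median 1148). Their median log2 fold change was 0.21 with age and -0.16 with the inhibitors, with 0 of 8 called in each. Between old anti-miR-mix and young mice 1 was lower, against 1.63% of all genes tested. The summed level of 12 pan-neuronal markers was 8646 to 9153 CPM in young, 8430 to 9039 CPM in old control and 8220 to 8920 CPM in old anti-miR-mix mice. Of the 12, 0 passed as lower with age and 0 with the inhibitors. Between old anti-miR-mix and young mice 1 passed as lower, against 1.63% of all genes tested. Their median log2 fold changes in these comparisons were -0.0078, -0.052 and -0.055. The sum of 12 microglial markers was 412 to 551 CPM in young, 539 to 634 CPM in old control and 641 to 862 CPM in old anti-miR-mix mice. Of the 12, 1 was higher with age (median log2 fold change 0.30), against 1.32% of all genes tested. With the inhibitors 7 were higher (median 0.38), against 0.669%, and between old anti-miR-mix and young mice 11 (median 0.62), against 4.57%. An unadjusted p under 0.05 was found by edgeR for 9 with age and 10 with the inhibitors, and for 18.1% and 10.5% of all genes tested. With processing group as a factor, the 129 genes called with the inhibitors were 9.

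The sum of 9 oligodendrocyte markers was 7374 to 11701 CPM in young, 6509 to 7754 CPM in old control and 6623 to 9795 CPM in old anti-miR-mix mice. Of the 9, 5 were lower with age (median log2 fold change -0.43), against 1.34% of all genes tested. With the inhibitors (median 0.24) and between old anti-miR-mix and young mice (median -0.16) 0 of the 9 passed. With age, 1.32% of all genes tested were called as higher and 1.34% as lower. Of 10 astrocyte markers 2 were higher and 1 lower with age. In old anti-miR-mix against young mice 4 of them were higher, against 4.57% of all genes tested. Counts of markers that passed with age were 1 lower of 6 for CA3 pyramidal cells, 1 higher of 6 for thalamus, 2 lower of 6 for oligodendrocyte precursors, and 0 for dentate granule cells, inhibitory neurons, endothelium, blood and choroid plexus. The part of these cell types in the values of the vesicle genes was not tested.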

How the data were processed

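CA1 tissue of 19 mice was profiled, and groups were taken from the descriptions in the labels. Per the study's methods, the authors sequenced polyadenylated RNA as single-end reads of 50 bases, aligned them to mm10 with STAR (2.5.2b) and counted reads per gene with featureCounts (Subread 1.5.1), and strand and multi-mapping options were not given in the sources used here. The deposited files held raw counts for each library and log2 values of 18761 genes, made by the authors as log2(CPM + 1) minus a slope per gene times a number from 1 to 4 per library (residual 3.4e-08). The number was recovered from the values, no label names it, and processing group is a working name. All columns were assigned, and 0 per-sample columns were left out. By the labels, replicates were separate samples, and p-values measure the spread between them.

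A gene was tested if 5 or more reads were found in 50% or more of the libraries. Counts were scaled by TMM and tested with edgeR 4.0.16 (R 4.3.3), quasi-likelihood, 3 groups in 1 fit without covariates, with Benjamini-Hochberg adjustment over 19286 genes with a threshold of 0.05. The standard error was the absolute log2 fold change over the square root of F, and 95% intervals used the t quantile of its degrees of freedom. Log2 CPM used a prior count of 2. RPKM used the exon length in GENCODE M21 (GRCm38). The fit was tested on simulated data. Sequences came from RefSeq, GENCODE and the study's list of oligonucleotides.

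The genes and lists (10 genes, 7 lists by role, 13 marker lists) were chosen with earlier results of these data known. All 10 genes are named, and of other vesicle genes up to 4 higher and 4 lower per comparison, taken from the genes past the threshold in order of the size of their log2 fold change. Of the listed names, Vamp7 had no gene identifier, and Cplx4 and Slc18a3 were below the filter. Alternatives were DESeq2 1.42.0, limma-voom and limma on the deposited log2 values (limma 3.58.1), other scalings and filters, fewer groups, the processing number, a replicate block, merged libraries and each library left out. Results of some genes are not reported here.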

Additional observations from a re-analysis of the deposited data

How the results depend on the processing

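Depth was ample for these genes (at least 2296 reads in every library), and the limits came from the number of mice and from variation between them. The number of genes bounded within 1.2-fold was 9 with age, 10 with the inhibitors and 9 between old anti-miR-mix and young mice under each of 13 alternatives and without each library, and the largest absolute log2 fold change of a gene other than Stx1a was 0.107. Of 390 values of single genes under the alternatives 365 kept their direction and side of the threshold, as did 344 of 380 without 1 library. The cause of the changes given here was not tested.

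The count of the 10 genes called with age, 1 as reported, was 0 with no filter on low counts, with processing group as a factor or a linear term, with old control replicates 5 and 6 as 1 library and with both of the last changes together (the fit with merged libraries and processing group was chosen after seeing the data). It was 0 to 1 without 1 library. For old anti-miR-mix against young mice the count was 2 by DESeq2, 0 with total counts, with only the 2 groups compared, with processing group as a factor, on the deposited log2 values and with merged libraries and processing group, and 0 to 1 without 1 library. Calls over all genes with age, 514 as reported, were 897 by DESeq2, 323 with no filter, 772 with only 2 groups, 305 with merged libraries, 223 with merged libraries and processing group, and 212 to 691 without 1 library. With the inhibitors, 129 as reported, they were 264 by DESeq2, 55 with 2 groups, 9 with processing group as a factor, 33 with merged libraries, 6 with merged libraries and processing group, and 23 to 247 without 1 library. Against young mice, old anti-miR-mix mice had 1196 calls as reported, and 892 to 1256 without 1 library. Other vesicle release genes called with age, 5 as reported, were 10 by DESeq2, 12 with 2 groups, 2 with processing group as a factor, 3 with it as a linear term, 3 with merged libraries, 2 with merged libraries and processing group, and 2 to 8 without 1 library. For old anti-miR-mix against young mice, 6 as reported, they were 10 by DESeq2, 3 with no filter and 3 to 10 without 1 library (10 without young replicate 2 and 3 without young replicate 4).

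Fitted log2 fold changes near 0 changed sign. With age, Vamp2 was -0.0058 with total counts, -0.0059 with processing group as a factor, -0.0017 on the deposited log2 values, -0.0051 with merged libraries, -0.018 with merged libraries and processing group and -0.00088 to 0.0214 without 1 library, Cplx2 was -0.0077 on the deposited log2 values, and Syp was -0.0266 to 0.0227 without 1 library, above 0 in 4 cases. With the inhibitors, Sv2a was 0.0078 with processing group as a factor, 0.00063 on the deposited log2 values, 0.0106 with merged libraries and processing group and -0.0569 to 0.00048 without 1 library, Slc17a7 was 0.0038 with merged libraries and processing group and -0.0644 to 0.0093 without 1 library, and Cplx1 was -0.0024 to 0.0678 without 1 library. Between old anti-miR-mix and young mice, Slc17a7 was 0.003 with total counts, 0.0104 with processing group as a factor, 0.0084 with merged libraries and processing group and -0.0367 to 0.0304 without 1 library, and Cplx1 was -0.0512 to 0.019 without 1 library.

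Replicate numbers are shared between groups, and whether they pair the mice was not tested. Over 18 pairs with the same number, deviations from the group means correlated at -0.17 to 0.21, with 6 pairs over 0.1. Pairs with different numbers ran from -0.27 to 0.39. With the replicate number as a block 249 genes were called with the inhibitors in place of 129, the calls of the 10 genes were 1, 0 and 1 as reported, and Slc17a7 had a log2 fold change of 0.0129 between old anti-miR-mix and young mice in place of a value below 0.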
